A study of Mus musculus with 35 samples.

Results

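Enteric glia grown on Matrigel, a basement membrane extract, were compared with and without interleukin-1β (IL-1β), and the comparison was made between the 5 libraries labelled Matrigel IL-1β and the 5 labelled Matrigel naive, 10 of the 35 libraries of the series. The cultures came from the muscle layer of the small intestine of wildtype mice on the BL6 background (C57BL/6J, 8 to 16 weeks old), passed through neurospheres for 7 days in proliferation medium and were then differentiated on the coating. Treated cultures received 10 ng/ml IL-1β for 24 h and naive cultures received serum-free medium alone. The labels place the treatment at day 3 of differentiation, whereas the study's text gives day 5. These are primary cultures and also hold cells other than glia, and the labels number biological replicates without saying whether each came from its own mouse, so p-values measure the spread between these libraries. RNA was sequenced from the 3' end of polyadenylated transcripts, and all levels are normalized counts, that is, estimated reads per gene divided by a size factor per library.

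IL-1β is a cytokine of early innate immunity that binds a receptor of IL1R1 and the accessory chain IL1RAP. Through the adaptor MyD88 and the kinases IRAK and TAK1 it releases the transcription factor NF-κB from its inhibitor IκBα and activates the MAP kinases that act on AP-1. In the gut wall, glia that meet this cytokine are known to turn reactive and to release chemokines and cytokines that call in and feed monocytes and neutrophils.

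The 10 libraries held 8380305 to 9074147 normalized counts each, and 11945 to 12484 genes above 15. Estimated depth ran from 8010000 to 11700000 reads. The correlation of log2 levels between any pair of these libraries lay between 0.867 and 0.9244, so none was a repeat of another. Sox10 and S100b, which define enteric glia, were present in all 10 libraries. Of 15 macrophage markers, Lyz2 (up to 835 counts in naive and 489 in treated libraries) and Csf1r (up to 214 and 244) were above 0 in all 10 libraries. The pan-leukocyte phosphatase Ptprc reached at most 7.16 and 12, and Cx3cr1 was listed at 0 in all 10.

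Treatment separated the libraries. Of the variance in log2 levels 15.6% lay between treated and naive cultures (exact permutation test of the pseudo-F of 1.48, one-sided, p = 0.00794, the smallest that 5 against 5 libraries can give). Of 20687 genes tested with limma on log2(normalized count + 2), 235 rose and 170 fell at an adjusted p under 0.05 (Benjamini-Hochberg), which is 1.14% and 0.822% of the genes. Every treated library lay above every naive one for 290 genes (1.4%) and below for 238 (1.15%). Increases were larger than decreases: the median log2 fold change was 1.51 among genes that rose and -1.29 among those that fell, and 95 genes rose at least 4-fold against 49 that fell by as much. Without naive replicate 2, naive replicate 4 or treated replicate 5 the genes that fell numbered 98, 102 and 106. Among the genes that rose, 17 were listed at 0 in every naive library. Scaled instead to the mean of the housekeeping genes Gapdh, Rpl32, Actb and Pgk1, 283 genes rose and 71 fell, so that 79.9% of the calls were increases in place of 58.0%. That scaling moved the median of all genes by 0.0464, a median that includes 1892 genes at 0 in all 10 libraries. Of the 4 genes it uses, Actb held the most counts, with means of 66017 in naive and 56414 in treated libraries. Actb was not called (log2 fold change -0.23, SE 0.12), whereas Pgk1 rose (log2 fold change 0.54, SE 0.15, adjusted p = 0.0339, limma).

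**Figure D1:**
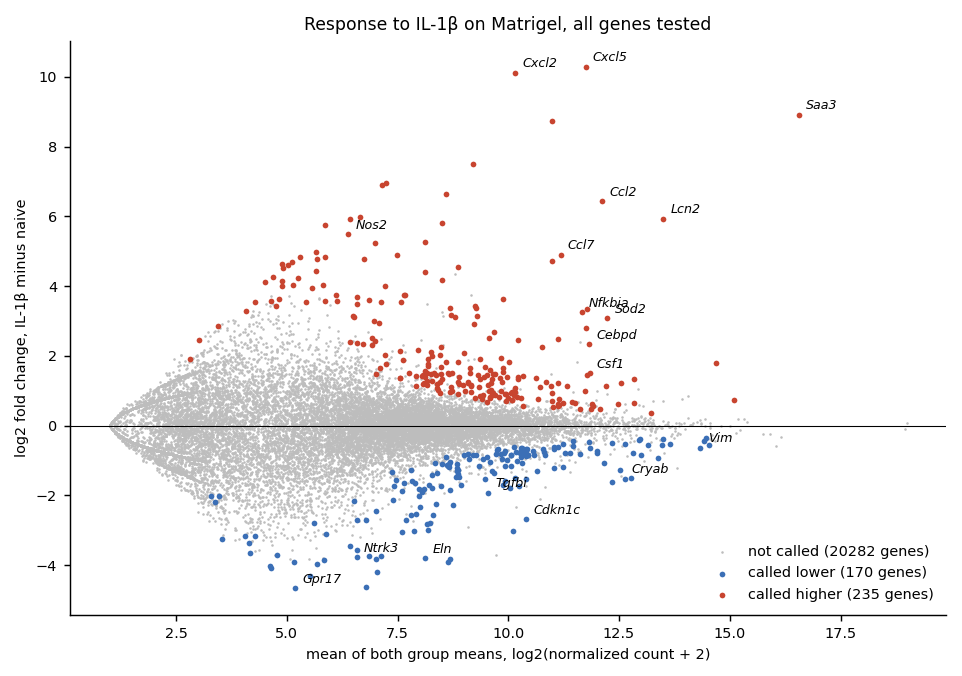
Log2 fold change (IL-1β minus naive, vertical axis) against the mean level of both groups in log2(normalized count + 2) for 20687 genes, with 235 genes called higher in red, 170 called lower in blue and the rest in grey. The largest changes are increases of chemokine and acute-phase genes, and the fitted change of a gene at 0 in naive libraries (Cxcl2, Nos2) depends on the added count of 2.

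The chemokines that draw neutrophils through the receptor CXCR2 went from little or nothing to high levels. Cxcl5 had 0, 17.9, 18.9, 0 and 0 normalized counts in naive replicates 1 to 5 and 10776, 5720, 9596, 4171 and 4074 in treated replicates 1 to 5. Cxcl2 was listed at 0 in all 5 naive libraries and stood at 1713, 2268, 2162, 3099 and 2100 after IL-1β. Cxcl1 had 40.9, 0, 3.77, 25.9 and 1.84 counts in naive cultures and 3029, 2419, 5582, 2853 and 6395 in treated ones. For each of these chemokines the lowest treated library stood far above the highest naive one. The log2 fold change was 10.29 for Cxcl5 (SE 0.54, adjusted p = 8.57e-20, limma) and 8.74 for Cxcl1 (SE 0.85, adjusted p = 2.16e-07, limma). Of 6 tested genes of the neutrophil CXC chemokine list 3 rose and none fell.

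The sequences just before the start of Cxcl1 and Cxcl2, neighbours on chromosome 5, are shown because both were among the largest risers and both carry the 10-base κB consensus that NF-κB binds. Those of Il6 and of Nfkbia, the gene of IκBα, are shown with them as a cytokine gene and the feedback gene of the pathway. Each run is the 250 bases before the start, 5′ to 3′ on the gene's strand, from RefSeq on GRCm38.p6, which is mm10, with the κB letters in capitals. They lie at chr5:90890995-90891244 (plus strand) for Cxcl1, chr5:90903649-90903898 (plus) for Cxcl2, chr5:30012864-30013113 (plus) for Il6 and chr12:55492648-55492897 (minus) for Nfkbia.
Cxcl1: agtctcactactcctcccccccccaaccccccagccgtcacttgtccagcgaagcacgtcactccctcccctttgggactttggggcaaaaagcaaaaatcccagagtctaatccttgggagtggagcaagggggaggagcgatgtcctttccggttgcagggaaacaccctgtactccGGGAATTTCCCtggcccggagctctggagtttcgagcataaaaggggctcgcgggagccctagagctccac
Cxcl2: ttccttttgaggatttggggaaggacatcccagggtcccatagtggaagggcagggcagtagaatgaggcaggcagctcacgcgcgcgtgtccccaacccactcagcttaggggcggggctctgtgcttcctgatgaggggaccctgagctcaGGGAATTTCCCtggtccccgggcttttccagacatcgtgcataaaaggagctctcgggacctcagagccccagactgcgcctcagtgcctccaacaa
Il6: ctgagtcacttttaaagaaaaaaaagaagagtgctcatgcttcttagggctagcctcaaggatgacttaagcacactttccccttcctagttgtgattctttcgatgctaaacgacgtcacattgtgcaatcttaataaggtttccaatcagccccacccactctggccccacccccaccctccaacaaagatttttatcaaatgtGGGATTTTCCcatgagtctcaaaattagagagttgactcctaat
Nfkbia: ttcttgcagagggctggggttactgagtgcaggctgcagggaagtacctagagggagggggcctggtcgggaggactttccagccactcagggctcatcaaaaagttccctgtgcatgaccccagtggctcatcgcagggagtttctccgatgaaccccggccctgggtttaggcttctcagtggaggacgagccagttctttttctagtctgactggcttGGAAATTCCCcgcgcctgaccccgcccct
The match ended 60 bases before the start in Cxcl1, 86 in Cxcl2, 34 in Il6 and 19 in Nfkbia. In Cxcl1 and Cxcl2 the capitals cover a pair of overlapping matches, and all 4 genes rose.

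Searched on both strands, the κB consensus stood in this window of 37 of the 176 genes that rose and have a sequence in the table, or 21%. It stood in 11 of 131 genes that fell (8.4%), in 8.63% of the 13235 tested genes with a sequence and in 7.01% of all 27025 promoters. Of the 15 largest risers 10 had a sequence and 6 of these held a match: Cxcl1, Cxcl2, Serpina3g, Steap4, Ccl20 and Gbp5. No match was found for Saa3, Il13ra2, Lcn2 and Sprr2b. The AP-1 letters TGANTCA, searched separately on both strands so that matches of both kinds may overlap, stood in 8.52% of the genes that rose, 6.11% of those that fell and 5.05% of the tested genes. These shares describe letters in 1 window and say nothing of binding.

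Among the other chemokines 8 of 25 tested members rose and none fell. Ccl2, which recruits monocytes through CCR2, had 127, 76.1, 125, 55.1 and 126 counts in naive libraries and 6184, 8336, 11936, 9106 and 8163 in treated ones. Its replicates were close within each group, and it had the smallest adjusted p of all named genes (log2 fold change 6.44, SE 0.20, adjusted p = 8.29e-33, limma). Ccl7, a monocyte chemokine that neighbours it on chromosome 11, rose from 41.0 to 291 counts in naive libraries to 2572 to 6901 in treated ones (log2 fold change 4.89, SE 0.41). Ccl11, the eosinophil chemokine eotaxin, rose by 4.16 on the log2 scale (SE 0.49), although its lowest treated library, replicate 4 with 130 counts, lay just above the highest naive one with 86.2, and with limma-voom weights the adjusted p of Ccl11 was 0.0603. Ccl20, which attracts cells carrying CCR6, was listed at 0 in 4 naive libraries and ran from 97.5 to 322 in treated ones (log2 fold change 5.97, SE 0.97). Ccl5, a T cell and monocyte chemokine, was at 0 in 4 naive libraries and 24.2 in the other, and reached 3068, 243, 2032, 170 and 292 counts in treated replicates 1 to 5. Treated replicates 1 and 3 were thus far above the other treated libraries for Ccl5, and all 5 were above naive. Cxcl10, Cxcl16 and Cx3cl1 were the other members that rose. Over the list the median log2 fold change was 1.11, against 0.0 over all genes tested.

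**Figure D2:**
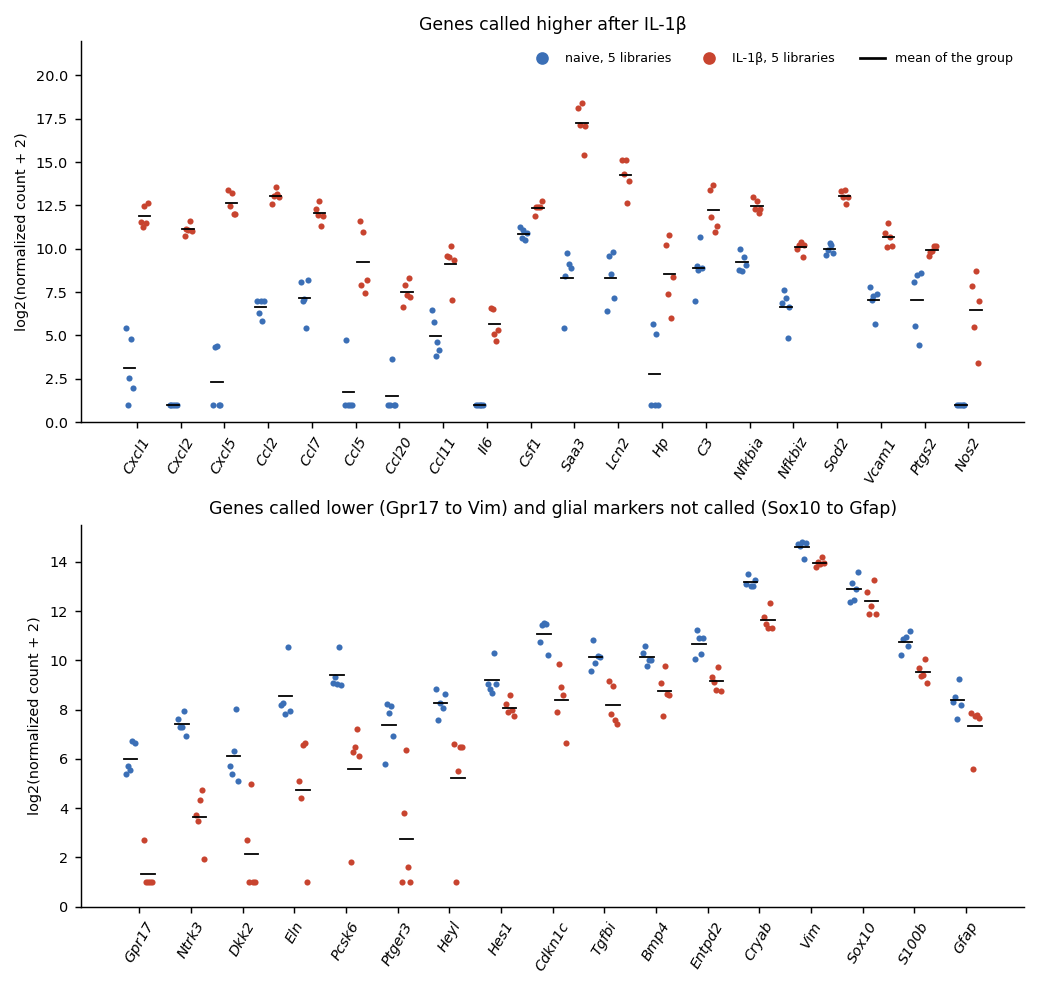
Levels in log2(normalized count + 2) of named genes in the 5 naive (blue) and 5 IL-1β (red) Matrigel libraries, each point a library and each black line the mean of the group. In the upper panel all treated libraries lie above all naive ones, from Cxcl2 at 0 in every naive library to Csf1 with 1450 to 2417 against 3811 to 6941 counts, while in the lower panel Sox10 overlaps between groups.

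Of the cytokine and colony-stimulating factor genes 3 of 22 tested members rose (Il6, Tnfsf15 and Csf1) and none fell. Il6, which signals through gp130 and drives acute-phase genes, was listed at 0 in all 5 naive libraries and at 93.1, 90, 32.1, 23.4 and 38.3 counts in treated ones (adjusted p = 0.00207, limma). Csf1, the growth factor of macrophages, was already high in naive cultures at 2417, 1586, 2135, 1450 and 1932 counts. It rose to 3811, 5401, 5452, 5395 and 6941 (log2 fold change 1.5, SE 0.19, adjusted p = 2.82e-06). Tnfsf15, a TNF family ligand, rose by 3.53 on the log2 scale (SE 0.86, adjusted p = 0.0147), but the groups overlapped, and without naive replicate 2 or 4 its adjusted p was 0.079 or 0.0866. Csf3, the granulocyte growth factor, was listed at 0 in all naive libraries and in 1 treated one, and its highest treated value of 45.8 did not bring it past the threshold (adjusted p = 0.179), while limma-voom called it (adjusted p = 0.0319). Tnf was at 0 in all naive and 2 treated libraries (adjusted p = 0.122), and it passed when treated replicate 2 or 3 was left out (adjusted p = 0.0422 and 0.0361). Lif, a gp130 ligand, had 4.48 to 46.1 counts in naive and 9.68 to 98.0 in treated libraries, with no call.

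Of the pathway's own parts, the receptor chain Il1r1 was the member that rose among 20 tested genes of IL-1 receptor signalling. It had 56.0, 97.6, 138, 54.0 and 62.6 counts in naive cultures and 406, 346, 389, 138 and 253 in treated ones (log2 fold change 1.88, SE 0.47, adjusted p = 0.0175). Treated replicate 4 was level with the highest naive library and the other treated libraries stood above all naive ones. That call was lost under 6 alternatives, among them each of the treated replicates 1, 2 and 3 left out (adjusted p from 0.0521 to 0.0574) and naive replicate 4 left out (0.0552). The accessory chain Il1rap (log2 fold change 0.52, SE 0.59, adjusted p = 0.838) and the adaptor Myd88 (0.73, SE 0.26, adjusted p = 0.189) did not pass.

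Genes of NF-κB and its feedback rose together. Of 21 tested members 11 rose, none fell, all 21 had a fold change above 0, and the median log2 fold change was 1.42. Nfkbia, which encodes the inhibitor IκBα, had 444, 1027, 422, 733 and 525 counts in naive cultures and 7988, 4989, 6874, 4281 and 5062 after treatment (log2 fold change 3.25, SE 0.19, adjusted p = 2.28e-18). Nfkbiz, the nuclear IκBζ that co-activates a set of NF-κB targets, rose from 27.0 to 195 counts to 746 to 1364 (log2 fold change 3.44, SE 0.33). Bcl3, another nuclear IκB protein, rose by 3.16 (SE 0.33) and Relb, a subunit of the alternative pathway, by 2.12 (SE 0.36) on the log2 scale. The other members that rose were Zc3h12a, Birc3, Tnip1, Nfkb1, Birc2, Nfkbib and Nfkb2, thus subunits, inhibitors and ubiquitin ligases alike. Rela, the main activating subunit, had 444 to 1420 counts in naive and 1022 to 1474 in treated cultures and was not called (log2 fold change 0.31, SE 0.19). Tnfaip3, the deubiquitinase A20, had 0 to 36.7 counts in naive and 23.8, 146, 138, 28.8 and 124 in treated libraries. It stood just outside the threshold (adjusted p = 0.0612) and passed it without naive replicate 4, which held the 36.7 counts (adjusted p = 0.027).

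Among AP-1 and immediate early genes 5 of 24 rose and 1 fell. Cebpd, a C/EBP factor that takes part in acute-phase transcription, rose from 962 to 1711 counts to 4888 to 6670 (log2 fold change 2.33, SE 0.16, adjusted p = 2.19e-16) with less spread among treated libraries than any chemokine named here. Its partner Cebpb rose by 2.08 (SE 0.31), the early response gene Ier3 by 2.48 (SE 0.27) and the AP-1 subunit Junb by 1.34 (SE 0.25), and Maff was the other riser. Klf2, a Krüppel-like factor known for restraining inflammatory genes, fell from 565, 796, 630, 883 and 320 counts to 179, 154, 321, 143 and 105 (log2 fold change -1.83, SE 0.40, adjusted p = 0.00742). The groups overlapped only where treated replicate 3 (321.5 counts) met naive replicate 5 (319.6).

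Acute-phase and iron genes rose in 11 of 25 tested members with none lower, and the median log2 fold change was 1.9. Saa3, a serum amyloid A protein made outside the liver, had 41.8, 339, 869, 564 and 473 counts in naive libraries and 287904, 143800, 351548, 43951 and 139712 in treated ones. It took 0.515% to 4% of all counts of a treated library and at most 0.0102% of a naive one. Its log2 fold change was 8.91 with a large error (SE 1.22, adjusted p = 5.57e-05), and it spread widely within both groups. Lcn2, the siderophore-binding protein lipocalin 2, rose from 81.8, 768, 366, 905 and 142 counts to 35590, 20303, 35633, 6491 and 15571 (log2 fold change 5.93, SE 0.88). Hp, the haemoglobin scavenger haptoglobin, was listed at 0 in 3 naive libraries and had 1202, 166, 1747, 61.8 and 328 counts in treated ones. For Saa3, Lcn2 and Hp treated replicate 3 was the highest and replicate 4 the lowest treated library. With limma-voom weights their adjusted p was 0.966, 0.0587 and 0.181, although no treated library overlapped a naive one.

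Iron and copper handling moved with them. Cp, the ferroxidase ceruloplasmin, rose from 64.0 to 238 counts to 1608 to 5921 (log2 fold change 4.73, SE 0.46), and Steap4, a metalloreductase, from at most 21.49 counts to 338 to 1413 (log2 fold change 6.63, SE 0.72). Slc11a2, the iron importer DMT1, rose by 1.91 (SE 0.21, adjusted p = 3.56e-09) with tight groups of 228 to 308 and 805 to 1324 counts. Serpina3g, a serine protease inhibitor, was listed at 0 in every naive library and at 73.5 to 537 in treated ones. Ptx3, Slc39a14, Steap2 and Fth1 also rose.

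In the complement list 2 of 20 genes rose. C3, the central component of the cascade, went from 126, 518, 436, 1609 and 476 counts to 10829, 3575, 12904, 1971 and 2496 (log2 fold change 3.35, SE 0.74, adjusted p = 0.0124). Naive replicate 4 alone came near the treated range. Cfb, the factor B of the alternative pathway, rose by 3.56 (SE 0.78, adjusted p = 0.1 with limma-voom weights). In a fit of the Matrigel libraries alone C3 had an adjusted p of 0.0884.

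Some enzymes of lipid and gas mediators rose, and a receptor fell, where 1.14% of all genes tested were called higher and 0.822% lower. Ptges, the terminal synthase of prostaglandin E2, rose from 58.9 to 183 counts to 217 to 820 (log2 fold change 2.26, SE 0.38, adjusted p = 0.000128, and 0.061 with limma-voom weights). Ptgs2, the cyclooxygenase COX-2, had 271, 44.8, 350, 19.4 and 381 counts in naive and 767, 903, 943, 1123 and 1161 in treated libraries. Its groups did not overlap, but naive cultures spread widely and the call (log2 fold change 2.90, SE 0.76, adjusted p = 0.0421) was lost under 9 alternatives, such as without naive replicate 2 (0.145) or 4 (0.158). Ptger3, the EP3 receptor of prostaglandin E2, fell from 53.3, 301, 229, 281 and 119 counts to 0, 12, 80.6, 1.07 and 0 (log2 fold change -4.63, SE 0.98, adjusted p = 0.00243). Over the 20 tested prostaglandin genes 2 rose and 1 fell, with a median log2 fold change of 0.262.

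Of 20 tested genes of arginine, nitric oxide and polyamines 3 rose, and the median log2 fold change of the list was 0.0762. Nos2, the inducible nitric oxide synthase, was listed at 0 in all naive libraries and at 227, 43.0, 413, 8.52 and 123 counts in treated ones. Gch1, which makes the cofactor that nitric oxide synthases need, rose from 0 to 62.6 counts to 110 to 355 (log2 fold change 4.01, SE 0.83, adjusted p = 0.00439, and 0.0588 with limma-voom weights). Odc1, the first enzyme of polyamine synthesis, rose by 0.98 (SE 0.23), a call lost without naive replicate 2 or 4 or treated replicate 2 or 5 (adjusted p from 0.0552 to 0.0674). Treated replicate 4 again had the least Nos2, whereas its 279 counts of Gch1 were in the middle of the treated group.

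Mitochondrial superoxide dismutase Sod2 rose from 801, 953, 1263, 1182 and 870 counts to 10322, 8064, 10570, 6195 and 7982 (log2 fold change 3.08, SE 0.16, adjusted p = 1.97e-20). Metallothionein Mt2 rose by 1.80 (SE 0.36), and none of the other 20 tested antioxidant and metallothionein genes was called. Among 29 glycolysis and hypoxia genes 3 rose. Hif1a, the oxygen-regulated factor, had 288 to 555 counts in naive and 897 to 1416 in treated cultures (log2 fold change 1.58, SE 0.20, adjusted p = 1.14e-07). Pfkl, a phosphofructokinase, rose by 1.69 (SE 0.35, adjusted p = 0.0513 with limma-voom weights), and Pgk1 was the third, a call lost without any 1 of 6 libraries (adjusted p up to 0.148 without naive replicate 2).

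Adhesion molecules for leukocytes rose in 5 of 16 members and 1 fell. Vcam1, the ligand of the integrin VLA-4, had 224, 133, 151, 48.6 and 166 counts in naive and 1946, 1084, 2846, 1615 and 1158 in treated cultures (log2 fold change 3.63, SE 0.31, adjusted p = 1.94e-11). Cd44, the hyaluronan receptor, rose by 1.44 (SE 0.15) from a high level of 1394 to 2392 counts to 4691 to 5379, and the treated libraries differed among themselves by a factor of 1.15. Sdc4, a heparan sulphate proteoglycan, rose by 1.47 (SE 0.24) and Cd47, the signal that restrains phagocytes, by 1.35 (SE 0.24), and Icam1 was the remaining riser. Alcam, a homophilic adhesion molecule, fell by 1.80 on the log2 scale (SE 0.42, adjusted p = 0.00761), and without naive replicate 4 or treated replicate 5 its adjusted p was 0.0687 or 0.062.

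Of 32 matrix proteases and inhibitors 4 rose, among them Timp1, Adamts4 and Mmp9. Timp1, an inhibitor of metalloproteinases, rose from 533 to 1063 counts to 2513 to 13071 (log2 fold change 2.80, SE 0.46) and Adamts4, an aggrecanase, by 2.42 (SE 0.53). Mmp9, gelatinase B, had 25.8, 0.895, 68.9, 45.4 and 101 counts in naive and 1148, 1459, 1196, 394 and 238 in treated libraries (log2 fold change 4.54, SE 0.96, adjusted p = 0.00847). In a fit of the Matrigel libraries alone the adjusted p of Mmp9 was 0.0749, and with limma-voom weights 0.245. Mmp3, stromelysin 1, did not pass: treated replicates 1, 2, 3 and 5 held 380 to 1388 counts, but replicate 4 held 46.9, within the naive range of 21.3 to 86.9 (adjusted p = 0.223). Mmp10 missed the threshold as well (adjusted p = 0.0736) and passed without treated replicate 2 (adjusted p = 0.0183) or without naive replicate 3 (0.0441).

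Of 43 tested interferon-stimulated genes 4 rose (Gbp2, Gbp5, Irf1 and Zbp1) and none fell. Over all genes tested 1.14% were called higher. Gbp2, a guanylate-binding protein, had 52.4, 123, 84.9, 34.6 and 66.3 counts in naive and 655, 422, 532, 1224 and 927 in treated libraries (log2 fold change 3.36, SE 0.33, adjusted p = 9.25e-11). Here treated replicates 4 and 5 were the highest, unlike for Saa3. Gbp5 was listed at 0 in all naive libraries and at 68.0 to 177 in treated ones, and Irf1, a factor that NF-κB induces, rose by 1.24 (SE 0.29, adjusted p = 0.0639 without trend and robust fitting). Zbp1, a sensor of unusual nucleic acids, was called at an adjusted p of 0.0485 and lost the call without any 1 library but naive replicate 2. Isg15 (log2 fold change 0.72, SE 0.74) and Ifit1 (2.22, SE 1.49), typical targets of type I interferon, were not called. The median of the list was 0.953, with 33 of 43 genes above 0.

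Antigen presentation rose in 4 of 25 genes. H2-K1, a class I heavy chain, went from 734 to 1446 counts to 1947 to 2736 (log2 fold change 1.12, SE 0.18, adjusted p = 4.46e-05), while its partner B2m did not pass (0.18, SE 0.12). The immunoproteasome subunits Psmb8 and Psmb10 rose by 1.45 (SE 0.32) and 1.23 (SE 0.28). Cd74, the class II invariant chain, was listed at 0 in all naive libraries and at 28.3, 20, 26.6, 14.9 and 0 counts in treated ones, so that its call (adjusted p = 0.0193, and 0.189 in a fit of the Matrigel libraries alone) rests on few counts. Of innate sensors, Tlr2, the lipoprotein receptor, rose by 3.50 (SE 0.71) and Casp4, the caspase that senses lipopolysaccharide, by 3.57 (SE 0.77), 2 of 22 tested. Cd14, the co-receptor for lipopolysaccharide, had 36.5, 6, 119, 26.6 and 45.7 counts after IL-1β and was not called (adjusted p = 0.188).

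Some growth factor and receptor genes also rose, where 1.14% of all genes tested were called higher. Ereg, a ligand of the EGF receptor, rose from 0 to 97.2 counts to 278 to 506 (log2 fold change 3.75, SE 0.68, adjusted p = 0.00121, and 0.0527 in a fit of the Matrigel libraries alone), and Lrig1, a brake on that receptor, by 2.15 (SE 0.39). These were 2 of 20 tested genes of that family, whose median log2 fold change was 0.104. For the gp130 list the median was 0.307. Osmr, the oncostatin M receptor, rose by 1.40 (SE 0.33) and Jak2 by 1.47 (SE 0.34), 2 of 18 genes of gp130 signalling. Without naive replicate 4 the adjusted p of Osmr was 0.0531, and without treated replicate 3 that of Jak2 was 0.056. The shared receptor Il6st (0.21, SE 0.15), Stat3 (0.19, SE 0.16) and the feedback gene Socs3 (1.18, SE 0.48, adjusted p = 0.301) did not pass. Il13ra2, a decoy receptor for IL-13, was at 0 in all naive and at 430, 206, 408, 72.4 and 286 counts in treated libraries. Sprr2b, known from stressed epithelia, was at 0 in naive and at 20.8 to 391 in treated ones.

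Genes that mark reactive astrocytes in the brain rose in 12 of 35 tested members and fell in 2. Many of the risers were already met here as chemokine, iron or interferon genes (Steap4, Lcn2, Ptx3, Cp, Cxcl10, Gbp2, Ptgs2, Timp1, Psmb8, Cd44, Osmr), and Tm4sf1 was the remaining one. The pair that fell belongs to the cytoskeleton and the stress response. Vim, the intermediate filament vimentin, went from 26943, 25408, 28432, 17870 and 27617 counts to 14052, 16197, 15607, 18715 and 15774 (log2 fold change -0.64, SE 0.10, adjusted p = 1.07e-05). Only naive replicate 4 lay in the treated range. Scaled to the housekeeping genes the fall was smaller and lost its call (log2 fold change -0.46, adjusted p = 0.25). Hspb1, a small heat shock protein, fell by 0.94 on the log2 scale (SE 0.23, adjusted p = 0.0306), a call lost under 9 alternatives, such as without naive replicate 4 (adjusted p = 0.113), and also without naive replicate 2 or treated replicate 1, 2 or 5. Gfap, the classical marker of reactive astrocytes, had 312, 366, 192, 603 and 292 counts in naive and 232, 46.0, 210, 216 and 199 in treated cultures and was not called (log2 fold change -1.05, SE 0.47, adjusted p = 0.379).

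**Figure D3:**
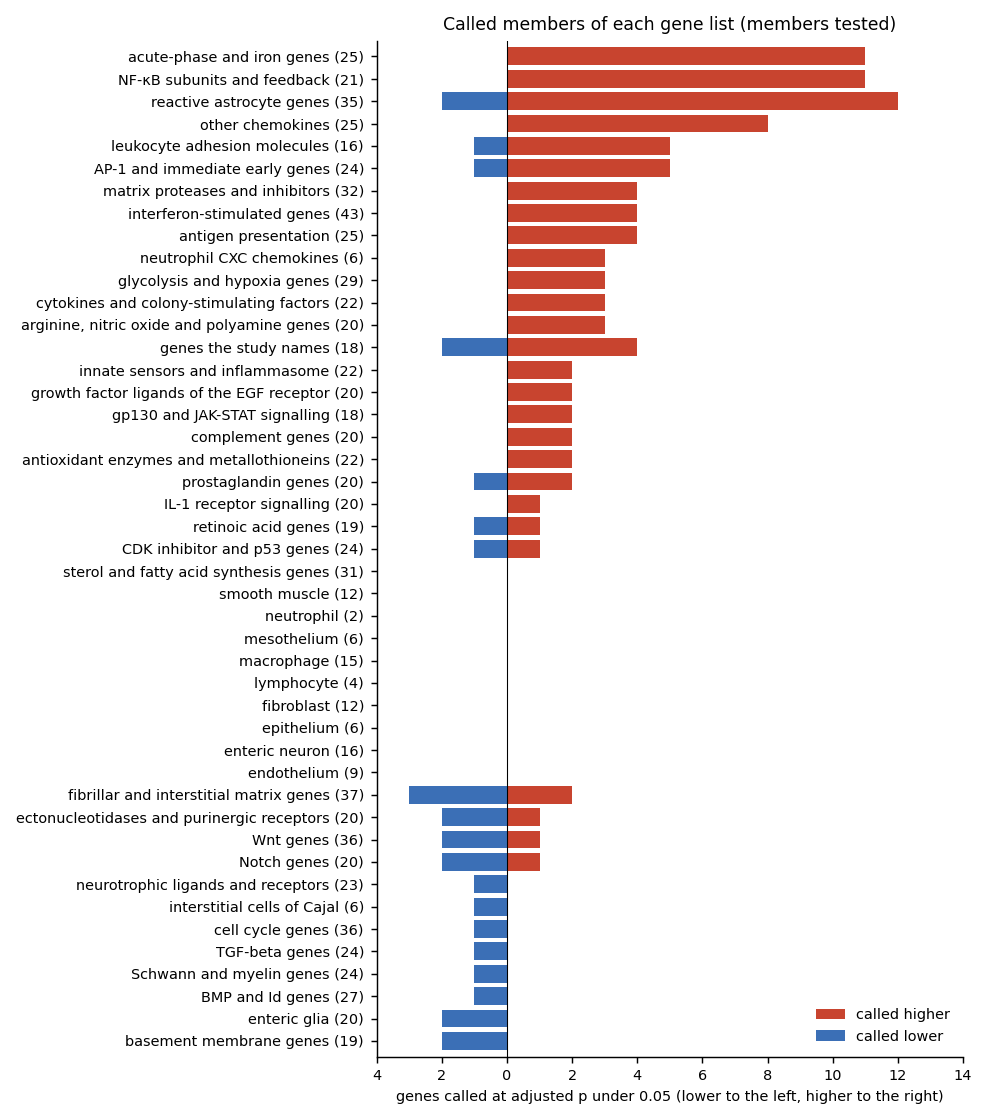
Members of each gene list called higher (red, to the right) or lower (blue, to the left) after IL-1β at an adjusted p under 0.05, with the number of members tested in brackets. Acute-phase and NF-κB lists have 11 increases each and no decrease, while 2 enteric glia genes and 2 basement membrane genes fell.

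The largest decreases included receptors, a matrix gene and a Wnt antagonist. Gpr17, an orphan receptor of immature oligodendroglia in the brain, fell from 40.0, 50.1, 45.3, 104 and 99.5 counts to 4.47, 0, 0, 0 and 0 (log2 fold change -4.67, SE 1.04, adjusted p = 0.00456). Ntrk3, the receptor of neurotrophin-3, fell from 195, 154, 156, 246 and 121 counts to 11.2, 9, 18.3, 24.5 and 1.87 (log2 fold change -3.78, SE 0.79, adjusted p = 0.00208). It was the only call among 23 neurotrophic ligands and receptors. Gdnf, a survival factor made in the gut wall, had 85.7 to 277 counts in naive and 84.1 to 245 in treated cultures, with no call. Chrm3, the muscarinic M3 receptor, fell by 3.57 (SE 0.92) and the membrane and actin regulator Mtss1 had a log2 fold change of -2.81 (SE 0.38, adjusted p = 4.66e-07). Sult1a1, Fam189a2, Pcsk6, Olfml2a, Ppp1r3c, Impa2, Plagl1 and Poc1a were further genes of the 15 largest falls. Several of these calls depended on single libraries: adjusted p reached 0.0983 for Chrm3 without treated replicate 4, 0.125 for Plagl1 without treated replicate 1, 0.124 for Impa2 without treated replicate 5, 0.117 for Olfml2a without treated replicate 3, 0.112 for Fam189a2 without treated replicate 2, 0.083 for Ppp1r3c without treated replicate 5 and 0.0682 for Sult1a1 without treated replicate 2. Pcsk6 was not called in a fit of the Matrigel libraries alone (adjusted p = 0.13) or with limma-voom weights (0.0631). All of the 15 had every treated library below every naive one by the way they were chosen. None of the 9 with a promoter sequence held a κB match. Among all tested genes with a sequence 8.63% held one, so 9 sequences are too few to show a lack.

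Developmental signalling had few calls, in both directions and no more than 3 in a list. Over all genes tested 1.14% were called higher and 0.822% lower. Whether calls were more frequent in these short lists than over all genes was not tested. In the Notch list Heyl and Hes1, effectors of the pathway, fell by 3.06 (SE 0.70) and 1.10 (SE 0.30), whereas Rbpj, the DNA-binding partner, rose by 0.81 (SE 0.20), 3 calls of 20 tested. Heyl had 456, 187, 306, 268 and 396 counts in naive and 95.3, 0, 44.0, 86.3 and 86.8 in treated cultures, and a fit of the Matrigel libraries alone gave it an adjusted p of 0.287. In the Wnt list the antagonist Dkk2 (log2 fold change -3.97, SE 1.05) and the receptor Fzd8 (-2.01, SE 0.43) fell and the agonist Rspo3 rose (1.91, SE 0.46), 3 of 36. Calls lost with 1 library left out were those of Hes1 (adjusted p up to 0.241, without naive replicate 4), Rbpj (0.108, without treated replicate 5), Dkk2 (0.116, without naive replicate 4) and Rspo3 (0.0844, without naive replicate 2). Bmp4, a ligand that promotes gliogenesis, fell from 869 to 1516 counts to 211 to 883 (log2 fold change -1.37, SE 0.32, adjusted p = 0.00956), 1 call of 27 BMP and Id genes. That call was lost with scaling to housekeeping genes (adjusted p = 0.0559) and without trend and robust fitting (0.0552). Tgfbi, a matrix protein induced by TGF-β, fell from 765, 1809, 937, 1166 and 1139 counts to 576, 223, 501, 191 and 171 (log2 fold change -1.93, SE 0.36), 1 of 24 TGF-β genes. Cyp26b1, which breaks down retinoic acid, fell by 2.53 (SE 0.49, adjusted p = 0.000716) and Rdh10, which takes part in making it, rose by 1.5 (SE 0.38), 2 of 19, the latter not called without naive replicate 4 (adjusted p = 0.139).

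Matrix genes were called both ways. A fold change below 0 was found for 28 of 37 interstitial matrix genes (median log2 fold change -0.426), against 9608 of all 20687 genes tested. Of 37 interstitial matrix genes 3 fell: Eln, Col5a1 (adjusted p = 0.0797 without trend and robust fitting) and Col16a1. Eln, the elastic fibre protein, had 292, 306, 222, 1474 and 241 counts in naive and 32.0, 19, 92.5, 99.0 and 0 in treated cultures (log2 fold change -3.80, SE 0.88, adjusted p = 0.0176). Naive replicate 4 stood far above the other naive libraries, and without it the adjusted p was 0.0615. Vcan, the proteoglycan versican, rose by 1.83 (SE 0.36) and Thbs1, thrombospondin 1, by 0.94 (SE 0.25). Dag1, the laminin receptor dystroglycan, and Lamb2, a laminin chain, fell by 0.84 (SE 0.17) and 0.66 (SE 0.18), 2 of 19 basement membrane genes. On laminin and poly-L-ornithine the log2 fold changes were -0.79 and -0.74 for Dag1 and -0.48 and -0.43 for Lamb2. With scaling to housekeeping genes the adjusted p of Dag1 was 0.0577. The calls of Thbs1, Col16a1 and Lamb2 were each lost without any 1 of several libraries (adjusted p up to 0.117 without treated replicate 2, and up to 0.105 and 0.131 without treated replicate 5).

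Of 20 tested enteric glia genes 2 fell (Cryab and Entpd2) and none rose. A fold change below 0 was found for 17 of the 20, against 9608 of all 20687 genes tested, and the median log2 fold change was -0.955. Cryab, a small heat shock protein abundant in glia, went from 8680, 11574, 8218, 8254 and 9852 counts to 3496, 2829, 2554, 5195 and 2561 (log2 fold change -1.53, SE 0.21, adjusted p = 6.37e-05). Entpd2, the ectonucleotidase that gut glia use to break down extracellular ATP, fell from 1065, 2382, 1909, 1209 and 1941 to 646, 559, 442, 853 and 437 counts (log2 fold change -1.51, SE 0.24, adjusted p = 8.08e-05). S100b, a calcium-binding protein, also had every treated library below every naive one, at 1188 to 2319 against 540 to 1078 counts, with an adjusted p of 0.075 that fell to 7.92e-06 in a fit of the Matrigel libraries alone. The transcription factor Sox10 had 5236, 9072, 5552, 7543 and 12178 counts in naive and 6974, 3825, 4780, 9837 and 3749 in treated cultures, with overlapping groups and no call (log2 fold change -0.47, SE 0.32).

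The summed level of the 20 glial markers was 24412 to 43357 in naive and 14084 to 33013 in treated libraries, a mean log2 difference of -0.737 (two-sided exact permutation test, p = 0.0556, adjusted over 12 cell types p = 0.267). The unadjusted exact p was 0.0476 with equal library totals, 0.0397 without naive replicate 1 and 0.0238 without treated replicate 4. In bulk samples fewer cells of a type and less RNA of its genes per cell cannot be told apart. Smooth muscle markers summed to 16900 to 44200 in naive and 6100 to 21200 in treated libraries (log2 difference -1.1, two-sided exact p = 0.0635, adjusted p = 0.267), and no smooth muscle gene of 12 was called although 11 were below 0. Acta2, smooth muscle actin, had a log2 fold change of -1.22 (SE 0.44, adjusted p = 0.217). For fibroblast markers the log2 difference was -0.427 (exact p = 0.373). Macrophage markers summed to 502 to 1180 in naive and 543 to 975 in treated libraries (exact p = 0.69), mostly Lyz2, and neutrophil markers to at most 10.4 and 117. Whether the make-up of the cultures takes part in the changes of single genes was not tested.

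Other lists had calls in few or no members. Enpp1, which makes pyrophosphate from ATP, fell by 2.56 (SE 0.62, adjusted p up to 0.0796 without naive replicate 4), and Enpp2, the lysophosphatidic acid producer autotaxin, rose from 0 in 4 naive libraries and 48.6 in the fifth to 23.8 to 47.7, with overlapping groups and a call lost under 11 alternatives. Gldn, gliomedin, was the only call of 24 Schwann and myelin genes (log2 fold change -1.56, SE 0.42, adjusted p = 0.0305, and 0.154 without naive replicate 2). Cdkn1c, the CDK inhibitor p57, fell from 1702, 2771, 2906, 2836 and 1180 counts to 235, 921, 487, 390 and 98.0 (log2 fold change -2.68, SE 0.49, adjusted p = 0.00184, and 0.0667 in a fit of the Matrigel libraries alone), while the death receptor Fas rose by 1.5 (SE 0.40, adjusted p 0.129 without naive replicate 5). Of 36 cell cycle genes Ccnd3, cyclin D3, was the only call (log2 fold change -0.79, SE 0.18, adjusted p = 0.07 with scaling to housekeeping genes), and Mki67 had 33.8 to 224 counts in naive and 15.9 to 84.3 in treated cultures without one. None of 31 sterol and fatty acid synthesis genes was called.

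Of the 18 genes that the study names for its treated cultures, 4 rose (Ccl2, Il6, Il1r1 and Tmem176a) and 2 fell (Tgfbi and Bmp4) on Matrigel. The study chose most of them for differences between coatings among treated cultures, which is another comparison than this one. For IL-6 and CCL2 it measured protein released into the medium, which is another measure than the RNA levels given here. All were taken from the same experiment, so they are not independent evidence. Tmem176a, a membrane protein of the MS4A-like family, had 2351, 3781, 2821, 3354 and 2228 counts in naive and 8279, 6884, 9335, 3613 and 4867 in treated libraries (log2 fold change 1.13, SE 0.25, adjusted p = 0.0141, and 0.108 in a fit of the Matrigel libraries alone), and treated replicate 4 lay within the naive range. Ifitm3, an antiviral membrane protein, had 7248 to 14717 counts in naive and 9414 to 34433 in treated libraries and was not called (adjusted p = 0.316), nor was Ifitm1, which ran from 108 in treated replicate 4 to 5284 in treated replicate 3. Slco2a1 (log2 fold change 1.08, SE 0.52), Dock8 (0.91, SE 1.05), Slc3a2 (0.13, SE 0.28), Ifitm10 (0.13, SE 0.94), Tagln (-0.43, SE 0.62), Mmp17 (-0.97, SE 0.40), Cxcl14 (-1.85, SE 1.05), Slc8a2 (-3.00, SE 1.13) and Adrb3 (0.03, SE 1.03) did not pass either.

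The treated libraries differed among themselves in a gene-dependent way. Among the 179 genes that rose without overlap and with a treated mean of at least 50 counts, treated replicate 4 was the lowest library for 74 and replicate 3 the highest for 57. For some genes the treated libraries were close: the highest exceeded the lowest 1.36-fold for Cebpd and 1.41-fold for H2-K1. For others they were far apart, 6.55-fold for C3, 18-fold for Ccl5, 28.3-fold for Hp and 48.5-fold for Nos2. Replicate 4, low in Saa3, C3, Ccl5, Hp and Nos2, was the highest treated library for Cxcl2, Ccl20, Gbp2 and Gbp5. It also had the highest glial marker sum, 33013 against 14084 to 24558 in the other treated libraries, and the lowest fibroblast marker sum, 16194 against 29689 to 88118. Replicate 3, with the most Saa3, C3 and Hp, had the highest fibroblast sum. On the naive side replicate 4 was the highest library for 52 of the 102 genes that fell without overlap and had a naive mean of at least 50, and it held the highest fibroblast (82427) and smooth muscle (44235) sums of the naive libraries. The part of these sums in the spread of single genes was not tested.

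**Figure D4:**
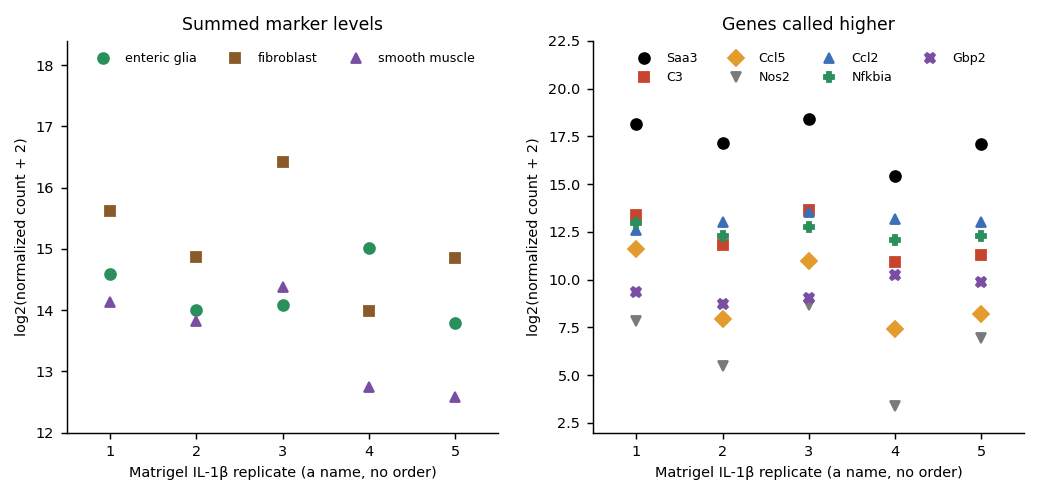
Summed markers of 3 cell types (left) and levels of 7 genes that rose (right) in the 5 treated Matrigel libraries, in log2(normalized count + 2), each point a library. Replicate 4 has the highest glial and the lowest fibroblast sum and the least Saa3, C3, Ccl5 and Nos2, but the most Gbp2, while Nfkbia differs little between libraries.

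The same treatment was given on poly-L-ornithine and on laminin, with naive and treated libraries of their own. There 237 genes (1.15%) rose and 152 (0.735%) fell on laminin, and 249 (1.2%) rose and 235 (1.14%) fell on poly-L-ornithine. Of the 235 genes that rose on Matrigel 157 also rose on laminin (66.8% of the Matrigel and 66.2% of the laminin list) and 156 on poly-L-ornithine (66.4% and 62.7%). Of the 170 that fell, 73 also fell on laminin (42.9% and 48% of the lists) and 82 on poly-L-ornithine (48.2% and 34.9%). Increases on all 3 coatings numbered 137 and decreases 53. Being called on 1 coating and not on another does not show that the responses differ, so the difference itself was tested.

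No gene passed that test (0 of 20687, 0.0%, against either coating, limma). At an unadjusted p under 0.05 (limma) there were 666 genes against laminin and 807 against poly-L-ornithine. Both numbers lie below what that threshold would pass on average among 20687 genes if no response differed. That average assumes evenly spread p-values, which genes near 0 counts need not give. The low numbers thus do not show that the responses are alike. With limma-voom weights no gene passed the adjusted test either. The intervals show what this leaves. Sod2 had a response on Matrigel that differed from laminin by 0.06 on the log2 scale (95% interval -0.40 to 0.53) and from poly-L-ornithine by 0.04 (-0.43 to 0.50). Ccl2 rose by 6.44 on Matrigel against 5.85 with laminin and 5.49 with poly-L-ornithine, a difference of 0.59 (0.01 to 1.17) and 0.94 (0.36 to 1.52) with adjusted p of 0.999 and 0.957. Vcam1 differed from poly-L-ornithine by 1.15 (0.27 to 2.03) and Cxcl5 from laminin by -1.56 (-3.10 to -0.02), neither past the adjustment. For Saa3 the interval against laminin ran from -4.55 to 2.57 and so holds differences of several fold either way, and for Gpr17 against poly-L-ornithine it ran from -5.21 to 0.70.

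**Figure D5:**
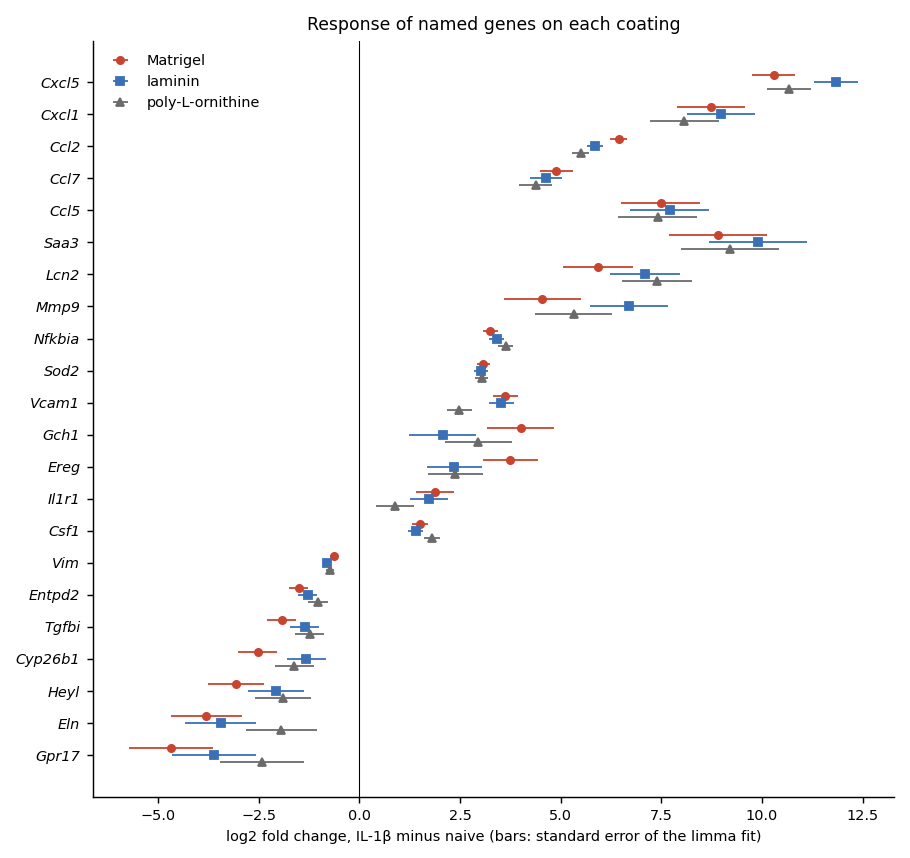
Log2 fold change (IL-1β minus naive) of named genes on Matrigel (red), laminin (blue) and poly-L-ornithine (grey), with bars for the standard error of the limma fit. Sod2 and Csf1 lie close together on the 3 coatings, Gch1 and Ereg are highest on Matrigel, and no difference passed the test after adjustment.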

How the data were processed

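Per the labels and the study's methods, libraries of polyadenylated 3' ends were trimmed with cutadapt, aligned to mm10 with STAR 2.5.3 and counted in Partek Flow. For the annotation release, not given in the sources used here, no name is stated. The authors normalized the estimated counts with DESeq2, and the deposited signal is a normalized count per gene, 22180 genes by 35 libraries. Raw reads could not be recovered, since only 85.4% to 87.4% of low values were whole multiples of a step (tolerance 0.02). Genes above 15 in at least 1 of the 30 culture libraries were tested on log2(normalized count + 2) with limma 3.58.1 (R 4.3.3, trend and robust), all 6 culture groups in 1 fit, with Benjamini-Hochberg adjustment over all genes. Fold changes on this scale understate the change of low genes. Marker sums were compared by exact permutation (Python 3.11.15, scipy 1.17.1). The fit was tested on simulated data.

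The comparison, its gene lists and the rules were chosen with earlier results of these data known. Genes are named if the study names them, if they are among the 15 largest separated changes per direction, or if they are the most significant or defining members of a list. List members named without values, and Cx3cr1, Ptprc, Csf1r and Lyz2, fall outside that rule and were chosen after their values were seen. Alternatives were other pseudocounts, filters, scalings, models, blocks and each replicate left out. Some withheld items are not reported here.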

Additional observations from a re-analysis of the deposited data

Results flagged for a closer look

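Of 286 groups of 5 libraries checked, 30 had 1 library separated from the rest by a gap large for the group's range, where chance flags about 1 in 20 groups of normally spread values. Groups with most libraries at 0 may depart from that rate. No explanation was tested. Naive replicate 4 was the highest naive library in C3 (1610 counts), Tnfaip3 (36.7), Enpp2 (48.6), Hspb1 (22900), Hes1 (1260), Impa2 (909), Eln (1470), Pcsk6 (1490), Fam189a2 (210) and Dkk2 (259), and the lowest in Vim (17900). Naive replicate 2 stood highest in Ccl5 (24.2), Zbp1 (16.1), Ifit1 (167) and Socs3 (417), and naive replicate 3 in Ccl20 (10.4) and Cd14 (20.8). Naive replicate 5 was highest in Mki67 (224) and lowest in Cyp26b1 (112), and naive replicate 1 was lowest in Ppp1r3c (147).

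Among treated libraries, replicate 1 was highest in Sult1a1 (14.9) and Gpr17 (4.47) and lowest in Plagl1 (17.9). Replicate 2 was lowest in Gfap (46.0) and highest in Slc8a2 (1.0), replicate 3 was highest in Dkk2 (29.3) and Ptger3 (80.6), replicate 4 was highest in Il1rap (222) and Cxcl14 (1.07), and replicate 5 was lowest in Fzd8 (22.4).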

How the results depend on the processing

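Of 107 named genes that were called, 53 kept the call under every alternative run and 54 lost it under at least 1. The number of genes that fell, 170, moved to 71 with scaling to housekeeping genes and to 83 without trend and robust fitting (159 rose there). With 1 library left out it ran from 98 to 173, and the number that rose from 178 to 212. The number of genes whose response differed from laminin ran from 0 to 1 (1 without naive replicate 1), and from poly-L-ornithine from 0 to 0. The causes were not tested.

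With the replicate number as a block, 213 genes rose and 150 fell. Equal replicate numbers did not pair the libraries: their deviations correlated at -0.0514 to -0.00257, and 0 of 10 libraries matched best with its own number. With the rank of the serial number in the sample labels as a block, 337 genes rose and 366 fell, with correlations of 0.0359 to 0.064 and 8 of 10 libraries matching best with their own rank, a hint from the data and not the design.

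Directions that reversed belonged to genes and sums that were not called. Leaving out 1 library, Lif ran from -0.0117 (without naive replicate 2) to 0.869. Ifitm10 was -0.345 without naive replicate 2 or 4, -0.361, -0.11 and -0.153 without treated replicate 1, 4 or 5, and at most 0.637. Adrb3 was -0.00054 with limma-voom, -0.567 without naive replicate 2, and -0.0428, -0.409 and -0.138 without treated replicate 2, 3 or 5, and at most 0.632. Gdnf was -0.406 at the lowest, 0.0112 without naive replicate 2 and 0.017 without treated replicate 4. The summed enteric neuron markers were -0.158 at the lowest, 0.000249 without naive replicate 2, 0.0702 without naive replicate 5 and 0.0226 without treated replicate 2, the macrophage sum -0.301 to 0.0194, the highest without naive replicate 3 and the mesothelium sum -1.26 to 0.267, the highest without treated replicate 1.

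Genes at a few counts, such as Cd74 and Gpr17, are limited by depth, and 5 libraries a group limit the tests between coatings.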

Other observations

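Of 25 tested imprinted genes, a list chosen after values were seen and so given without a test, 5 fell and none rose. All genes tested had 0.822% called lower. A fold change below 0 was found for 22 of the 25, against 9608 of all 20687 genes. Meg3, a maternally expressed non-coding RNA, fell by 1.5 on the log2 scale (SE 0.34) and Grb10, a growth factor receptor adaptor, by 0.60 (SE 0.15). Plagl1, Cdkn1c and Peg13 were the others.

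In further lists chosen the same way, Ch25h and Cyp7b1, enzymes that make and break down the oxysterol 25-hydroxycholesterol, rose by 5.24 (SE 1.07) and 4.90 (SE 1.11), 2 of 7. Cd40, Tnfrsf9 and Icosl rose among 9 costimulatory molecules. Tuba1a, Tuba1b, Tubb2a and Tubb2b fell slightly (log2 fold changes of -0.545, -0.379, -0.584 and -0.552) while Tuba1c rose by 0.66 (SE 0.15). These were 5 of 12 tubulin genes, and the median log2 fold change of that list was -0.106. For the genes of this paragraph no result under the alternatives, such as scaling to housekeeping genes, is given. Over all genes tested 1.14% were called higher and 0.822% lower.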
